A study of Mus musculus with 6 samples.

Results

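The 10 genes described here encode proteins that neutrophils store in their granules. They were taken by name from the deposited count table, which held 54532 genes, and all 10 were found in it. All 10 were also among the 14174 genes with enough counts to be tested. RNA-seq was performed on 6 libraries of cultured mouse cells labelled as dendritic cells, 3 with the treatment Control and 3 with DB2313. DB2313 is a small molecule that the study used as an inhibitor of the transcription factor Spi1 (PU.1). The text of the study speaks of macrophages instead of dendritic cells, and its culture methods name peritoneal macrophages. It also describes monocytes cultured with GM-CSF, with or without DB2313, in which C1q genes were measured by qPCR. The labels gave no strain, genotype, age, dose or time, and did not say whether the replicates came from separate mice or cultures, so the p-values measure the spread between these libraries, which may be technical. The columns of the table were named BMDC and SPI1, and every direction rests on reading them as the control and the DB2313 libraries.

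Neutrophils make their granules in a fixed order as they mature in the bone marrow. Azurophil granules form first, in promyelocytes, and hold myeloperoxidase (Mpo) and the serine proteases neutrophil elastase (Elane), proteinase 3 (Prtn3) and cathepsin G (Ctsg). Specific granules follow and hold lactoferrin (Ltf), lipocalin 2 (Lcn2), the cathelicidin Camp, the related protein Ngp and collagenase (Mmp8), and gelatinase granules with gelatinase B (Mmp9) form last. The genes are transcribed in precursors under PU.1 and C/EBP factors, and mature neutrophils carry the stored proteins.

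The label was compared with marker genes first. Of 16 dendritic cell markers, 15 were expressed above the filter, among them Batf3 (910 to 1839 counts per library), Irf4 (1829 to 2552) and Irf8 (3717 to 4832). Others were low, with 0 to 4 counts of Cd209a, which did not pass the filter, and 14 to 21 of Xcr1. Clec9a had 10, 10 and 17 counts in control and 42, 64 and 72 with DB2313, and was the dendritic cell marker called higher (edgeR adjusted p 0.0017). Markers of neutrophils outside the granules were also present, and 15 of 16 passed the filter. Among them, S100a8 averaged 1055 ± 60.4 CPM (counts scaled to a common library size, adjusted by TMM) in the control group against 1142 ± 147 CPM in the DB2313 group (SD, n = 3 each). Ly6g, a surface protein of mouse neutrophils, averaged 35.4 ± 3.64 against 52.1 ± 7.80 CPM. All 14 macrophage and monocyte markers passed the filter too, with Csf1r at 689 ± 17.6 against 562 ± 71.7 CPM. So did 7 of 10 mast cell and basophil markers, with Prss34 at 1213 ± 64.6 against 1349 ± 133 CPM. On this scale the highest dendritic cell marker was Cd74, at 6557 ± 87.7 against 5999 ± 608 CPM. It was followed by Ccr7 at 1535 ± 45.4 against 1349 ± 152 CPM and H2-Ab1 at 1310 ± 17.0 against 1241 ± 35.5 CPM. The libraries thus held transcripts of several lineages. In such bulk samples, more cells of a type and more RNA per cell cannot be told apart. Total counts ranged from 16146743 to 19764677 per library, and the counts of DB2313 replicates 1 and 3 were farther apart than those of any other pair within a group, with a chi-square of 17.7 per degree of freedom against 4.77 to 8.60.

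The promoters of 4 genes are shown first, because their transcripts gave the clearest rises (Elane, Ctsg and Mmp8) and the lowest log2 fold change of the 10 genes (Camp). Each window covers 250 bases before and 50 after the RefSeq start on GRCm38.p6, on the strand of the gene. Capitals mark GAGGAAG or its reverse complement CTTCCTC, a short form of the sequence that PU.1 binds. The windows are chr10:79886062-79886361 (plus strand) for Elane, chr14:56102525-56102824 (minus strand) for Ctsg, chr9:7558179-7558478 (plus strand) for Mmp8 and chr9:109849407-109849706 (minus strand) for Camp.
Elane: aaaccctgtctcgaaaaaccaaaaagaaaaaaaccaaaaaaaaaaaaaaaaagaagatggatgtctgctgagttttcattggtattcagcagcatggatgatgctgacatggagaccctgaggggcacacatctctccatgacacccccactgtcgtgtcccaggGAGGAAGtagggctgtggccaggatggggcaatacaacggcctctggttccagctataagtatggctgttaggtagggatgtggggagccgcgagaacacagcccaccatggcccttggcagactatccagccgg
Ctsg: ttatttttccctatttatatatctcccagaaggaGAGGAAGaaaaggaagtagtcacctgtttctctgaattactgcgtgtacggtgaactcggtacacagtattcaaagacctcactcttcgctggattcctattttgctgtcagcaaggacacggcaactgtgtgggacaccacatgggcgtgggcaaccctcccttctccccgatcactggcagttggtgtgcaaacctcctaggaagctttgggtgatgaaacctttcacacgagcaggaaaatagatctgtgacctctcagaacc
Mmp8: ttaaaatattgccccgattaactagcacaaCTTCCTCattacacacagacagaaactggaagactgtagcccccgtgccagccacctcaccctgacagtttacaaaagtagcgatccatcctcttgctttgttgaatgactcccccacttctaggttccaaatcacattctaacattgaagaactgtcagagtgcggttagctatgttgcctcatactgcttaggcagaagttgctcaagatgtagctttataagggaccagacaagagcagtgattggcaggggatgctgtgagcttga
Camp: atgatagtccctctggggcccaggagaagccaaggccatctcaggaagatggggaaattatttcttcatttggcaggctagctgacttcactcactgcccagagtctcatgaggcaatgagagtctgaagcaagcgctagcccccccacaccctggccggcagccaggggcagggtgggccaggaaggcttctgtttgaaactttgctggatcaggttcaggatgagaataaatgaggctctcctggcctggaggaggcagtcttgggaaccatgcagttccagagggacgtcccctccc

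GAGGAAG was found in the window of 6 of the 9 genes that the RefSeq table held (Elane, Prtn3, Mpo, Ctsg, Lcn2 and Mmp8), and in 13.6% of all 32851 promoter windows. All 4 azurophil genes had it. In bases from the start it lay at -85 in Elane, at -95 in Prtn3, at -216 in Ctsg, and at -247 and -224 in Mpo, which held it in 2 places. On the other strand it lay at -220 in Mmp8 and at -21 in Lcn2. It was not in the windows of Camp, Ngp and Ltf. The letters TTNNGNAA, a loose form of the C/EBP site, were in 4 of the 9 windows (Ngp, Ltf, Lcn2 and Mmp8) and in 40.7% of all windows. TGTGGT, read by RUNX factors, was in 2 of 9 (Ltf and Ctsg) against 16.8% of all, and AACGG, read by MYB, in 2 of 9 (Elane and Prtn3) against 17.4%. All motifs were searched on both strands and were chosen after the windows were seen. Mmp9 had no window in the table. A match describes letters only, and no binding was measured.

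The granule protein genes ranged from 425 counts, for Elane in control replicate 1, to 23378 counts, for Ngp in DB2313 replicate 1. Together they took 0.338% of all counts (95% Wilson interval 0.335% to 0.341%) in control replicate 1, 0.353% (0.350% to 0.356%) in replicate 2 and 0.367% (0.364% to 0.370%) in replicate 3. In DB2313 replicates 1, 2 and 3 they took 0.457% (0.454% to 0.461%), 0.411% (0.408% to 0.414%) and 0.385% (0.382% to 0.388%). These intervals cover counting error only. Each DB2313 library lay above each control library, with replicate 1 farthest from them. For DB2313 replicate 3 this rested on Mmp8, with 11493 of the 62722 counts, against 4667 of 59289 in control replicate 3. Without Mmp8, the share in DB2313 replicate 3 lies within the control range.

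Levels of different genes were compared as CPM per kilobase of gene length. In control, Ngp was the highest at 980.3 ± 63.8, followed by Ltf at 243 ± 13.7, Camp at 167 ± 18.7, Lcn2 at 165 ± 9.04, Mmp8 at 133 ± 15.6, Ctsg at 119 ± 10.8, Mmp9 at 59.1 ± 4.30, Mpo at 55.7 ± 3.15, Prtn3 at 52.3 ± 3.89 and Elane at 27.7 ± 1.30 CPM per kilobase (SD, n = 3). The ranges of Camp and Lcn2, of Mmp8 and Ctsg, of Mmp9 and Mpo, and of Mpo and Prtn3 overlapped, so that these neighbours did not differ beyond their spread. The order was thus led by genes of specific granules, and Elane was the lowest of the 10. With DB2313, Mmp8 was at 262 ± 25.3 CPM per kilobase (SD, n = 3), and ranked just after Ngp and Ltf. Its range there overlapped with that of Ltf and lay wholly above those of Lcn2 and Ctsg. On this scale, Ngp made up 48.9% of the sum of the 10 genes in control and 43.4% with DB2313, Mmp8 6.70% and 12.0%, Camp 8.32% and 6.08%, and Elane 1.39% and 2.01%.

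**Figure D1:**
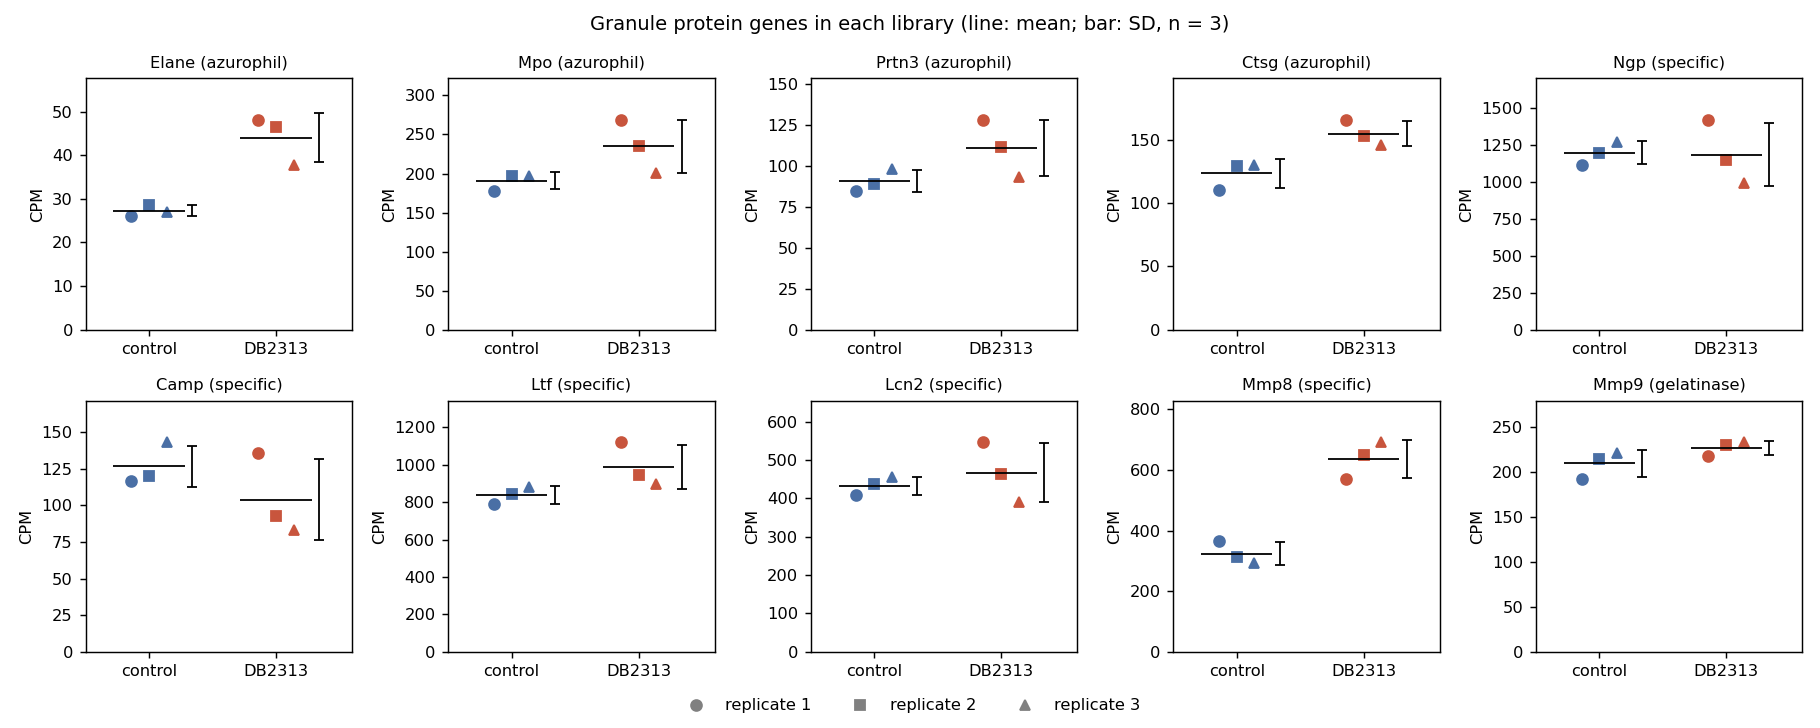
Level of each granule protein gene in CPM (vertical axes, from 0) in the 3 control (blue) and 3 DB2313 (red) libraries, with the replicate as the symbol, the mean as a line and the SD as a bar. For Elane, Mpo, Ctsg, Ltf and Mmp8, all DB2313 libraries sit above all control libraries, and for Camp DB2313 replicate 1 sits among the control libraries while the other two sit below them.

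To ask which of these genes differed with DB2313, DB2313 was set against control in the quasi-likelihood test of edgeR, with Benjamini-Hochberg adjustment over all genes tested. Mmp8, Elane and Ctsg rose. That is 3 of 10 genes, where 4.66% of all genes tested were called higher. None of the 10 was called lower by edgeR or by DESeq2, and 0 had a negative log2 fold change with an unadjusted p under 0.05, where 12.5% of all genes did. Of all genes, 5.94% were called lower and 10.6% in either direction. Unadjusted, 6 of the 10 had a p under 0.05 (Mmp8, Elane, Ctsg, Mpo, Ltf and Prtn3), all with a positive log2 fold change, where 10.9% of all genes had such a p and sign. The DB2313 libraries lay above all control libraries for 5 of the 10 genes and below them for 0, against 12.9% and 14.5% of all genes. The median log2 fold change of the 10 was 0.26, and that of all genes 8.2e-04. The members were chosen with earlier results of these data known, and the 10 were not tested as a set. These shares are therefore a description only.

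Mmp8 (ENSMUSG00000005800, chromosome 9, 7558456 to 7568485, plus strand), the neutrophil collagenase, showed the largest rise of the 10. It had 5947, 4981 and 4667 counts in control replicates 1 to 3, which is 366, 312 and 293 CPM. It had 9381, 12934 and 11493 counts in DB2313 replicates 1 to 3, which is 570, 649 and 691 CPM. The groups were far apart, and the lowest DB2313 library was well above the highest control library. The log2 fold change was 0.98 ± 0.09 (SE), or 1.97-fold, with an edgeR adjusted p of 7.7e-06. Mmp8 passed in each fit that left out 1 library. The only tested gene within 100 kb of it was its neighbour Mmp27, another metalloproteinase, which was also higher (log2 fold change 2.08, edgeR adjusted p 0.00375).

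Elane (ENSMUSG00000020125, chromosome 10, 79886247 to 79888215, plus strand), neutrophil elastase, also rose. It had 425, 457 and 432 counts in the control libraries (26.1, 28.7 and 27.1 CPM), and 791, 927 and 627 counts in DB2313 replicates 1, 2 and 3 (48.0, 46.5 and 37.7 CPM). The control libraries lay close together, and DB2313 replicate 3 was the lowest of its group but above all of them. This is a log2 fold change of 0.69 ± 0.11 (SE), or 1.61-fold, with an edgeR adjusted p of 5.9e-04, and Elane passed in each fit that left out 1 library.

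Ctsg (ENSMUSG00000040314, chromosome 14, 56099881 to 56102574, minus strand), cathepsin G, rose by a smaller amount. It had 1795, 2063 and 2074 counts in the control libraries (110, 129 and 130.1 CPM), and 2720, 3049 and 2420 counts with DB2313 (165, 153 and 145 CPM). The groups did not overlap, and control replicate 1 was the lowest library. The log2 fold change was 0.33 ± 0.08 (SE), or 1.25-fold, with an edgeR adjusted p of 0.019. Without control replicate 1 the log2 fold change was 0.25 and the edgeR adjusted p 0.122, and without DB2313 replicate 2 they were 0.33 and 0.0817.

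The other azurophil genes, Mpo and Prtn3, did not pass. Mpo (ENSMUSG00000009350, chromosome 11, 87793581 to 87804413, plus strand), which makes hypochlorous acid from hydrogen peroxide, was at 178, 197 and 196 CPM in the control libraries and at 268, 235 and 201 CPM with DB2313. The groups did not overlap, but DB2313 replicate 3 was close to the control libraries. The log2 fold change was 0.30 ± 0.09 (SE), with an edgeR adjusted p of 0.0501, next to the threshold, and of 4.3e-04 without DB2313 replicate 3. With DESeq2 it passed, with an adjusted p of 0.0249. Prtn3 (ENSMUSG00000057729, chromosome 10, 79874476 to 79883174, plus strand), a protease whose gene lies just before Elane on the same strand, was at 84.7, 89.1 and 97.97 CPM in control and at 128, 112 and 93.1 CPM with DB2313. DB2313 replicate 3 fell within the control range. Prtn3 had a log2 fold change of 0.29 ± 0.10 (SE), with an edgeR adjusted p of 0.0867, and of 0.00119 without DB2313 replicate 3. Mpo overlaps Gm11505 and Prtn3 overlaps Plppr3, so that some of their reads could belong to either gene. A stretch of 209 and 159 bases, respectively, was shared at 95% identity or more, and none of the other 8 genes shared such a stretch of at least 100 bases with another gene.

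Among the genes of specific granules other than Mmp8, none passed. Ltf (ENSMUSG00000032496, chromosome 9, 111019271 to 111042767, plus strand), which binds iron, was at 788, 846 and 882 CPM in control and at 1119, 947 and 899 CPM with DB2313. The groups did not overlap, although DB2313 replicate 3 was near control replicate 3. For Ltf the fitted log2 difference was 0.24 ± 0.08 (SE), and its edgeR adjusted p was 0.0826 with all libraries and 0.00364 without DB2313 replicate 3.

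Lcn2 (ENSMUSG00000026822, chromosome 2, 32384633 to 32388252, minus strand), which captures bacterial siderophores, was at 408, 437 and 454 CPM in control and at 546, 463 and 392 CPM with DB2313. The DB2313 libraries lay on both sides of the control range. For Lcn2 the fitted log2 difference was 0.11 ± 0.10 (SE), where the edgeR adjusted p was 0.564, and without DB2313 replicate 3 it was 0.22 with an edgeR adjusted p of 0.0361. Without DB2313 replicate 1 its sign turned, to -0.017.

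Ngp (ENSMUSG00000032484, chromosome 9, 110419747 to 110423012, plus strand) is a cathelicidin-like granule protein and had the highest counts of the 10 genes, from 16547 to 23378 per library. It was at 1119, 1201 and 1274 CPM in control and at 1420, 1147 and 994 CPM with DB2313. DB2313 replicate 1 was the highest of all libraries and replicate 3 the lowest, so that the log2 fold change was -0.013 ± 0.10 (SE) with an edgeR adjusted p of 0.959. This sign turned with library totals and without control replicate 3, DB2313 replicate 2 or DB2313 replicate 3.

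Camp (ENSMUSG00000038357, chromosome 9, 109847379 to 109849617, minus strand), the precursor of the antimicrobial peptide CRAMP, was at 117, 120.1 and 143 CPM in control and at 135, 92.5 and 83.3 CPM with DB2313. DB2313 replicates 2 and 3 lay below all control libraries, and replicate 1 lay within their range. Camp had a log2 fold change of -0.29 ± 0.14 (SE), with an edgeR adjusted p of 0.228. Without DB2313 replicate 1 the log2 fold change was -0.52 and the edgeR adjusted p 1.3e-04. Mmp9 (ENSMUSG00000017737, chromosome 2, 164940780 to 164955850, plus strand), gelatinase B, was at 192, 214 and 221 CPM in control and at 218, 230 and 232 CPM with DB2313. The ranges overlapped, and the log2 fold change of Mmp9 was 0.12 ± 0.07 (SE) and the edgeR adjusted p 0.371.

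**Figure D2:**
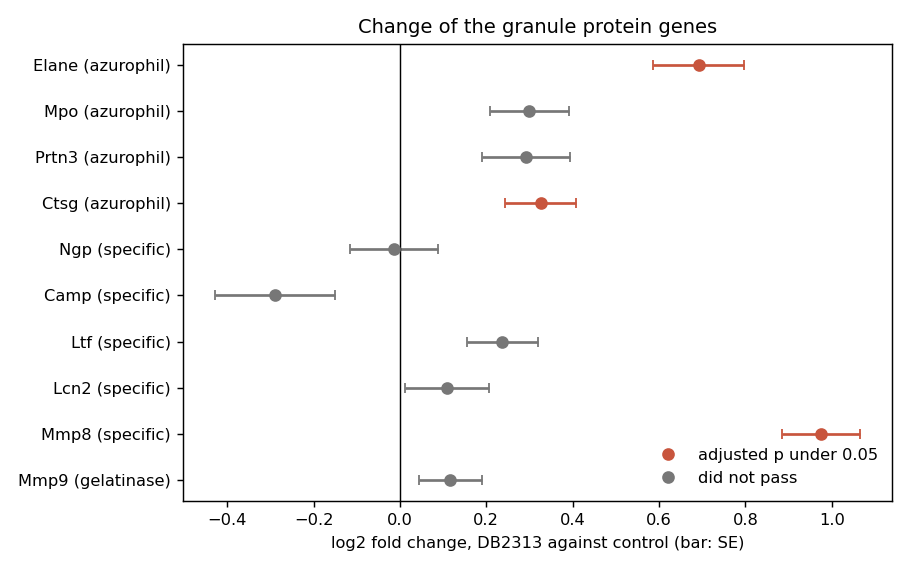
Log2 fold change of each granule protein gene with DB2313 against control (horizontal axis, bar as SE), with the granule that holds its protein in brackets and red points for an edgeR adjusted p under 0.05. Mmp8 at 0.98 and Elane at 0.69 lie apart from the other genes, which lie between -0.29 and 0.33.

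The spread between the DB2313 libraries was wider than that between the control libraries for 7 of the 10 genes, and narrower for Ctsg, Mmp8 and Mmp9. Within the DB2313 group, replicate 1 was the highest and replicate 3 the lowest for 8 of the 10 genes, and the reverse held for Mmp8 and Mmp9. The share of all genes with a given order of replicates was not computed in either group. The highest library exceeded the lowest by 1.62-fold for Camp, 1.43-fold for Ngp, 1.39-fold for Lcn2, 1.37-fold for Prtn3 and 1.33-fold for Mpo, and by 1.07-fold for Mmp9. In control these ratios ran from 1.10 for Elane to 1.25 for Mmp8, with 1.22 for Camp, 1.14 for Ngp and 1.15 for Mmp9. In the 7493 genes with a mean of at least 20 CPM, the median of this ratio was 1.15 with DB2313 and 1.11 in control. Within the control group, replicate 1 was the lowest for 9 of 10 genes and the highest for Mmp8. In both groups, therefore, Mmp8 was high where most of the other genes were low.

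Markers of other cells moved with these libraries. The summed level of the 16 neutrophil markers outside the granules was 2801 to 3088 CPM in control and 2813 to 3507 CPM with DB2313. Of the DB2313 libraries, replicate 1 was the highest and replicate 3 the lowest. S100a8 and S100a9 made up most of this sum in each library, and the rest, summed, had the same order with DB2313. The 10 mast cell and basophil markers summed to 2375 to 2569 CPM in control and to 2896, 2761 and 2398 CPM in DB2313 replicates 1, 2 and 3. Prss34 and Mcpt8 made up most of this sum in each library. Mcpt4, Tpsb2 and Cma1 had at most 1, 3 and 37 counts in a library, and Tpsab1 was at 0 in all libraries. The 10 T and B cell markers summed to 134 to 163 CPM in control and to 199, 167 and 138 CPM in DB2313 replicates 1, 2 and 3. The 9 eosinophil markers ran the other way, with 258 to 349 CPM in control and 227, 274 and 325 CPM with DB2313, and Siglecf was the only one called (log2 fold change -0.80, edgeR adjusted p 0.0312). The 10 progenitor markers summed to 609 to 633 CPM in control and to 667, 699.5 and 708 CPM with DB2313. The order of these DB2313 sums rested on Cd93, at 179, 217 and 255 CPM. Without Cd93, the progenitor sum was highest in DB2313 replicate 1 and lowest in replicate 3. The dendritic cell markers summed to 11502 to 11882 CPM in control and to 11463, 10592 and 9609 CPM with DB2313. Cd74 made up most of this sum in each library. The macrophage and monocyte markers summed to 2868 to 3026 CPM in control and to 2466, 2542 and 2784 CPM with DB2313. The part of these cells in the granule gene values was not tested. Without DB2313 replicate 3, 7 of the 10 granule genes were called higher and 0 lower, where 7.55% of all genes tested were called higher and 9.02% lower. Without DB2313 replicate 1, 3 of the 10 were called higher and 1 lower, where 5.42% of all genes were called higher and 6.33% lower.

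**Figure D3:**
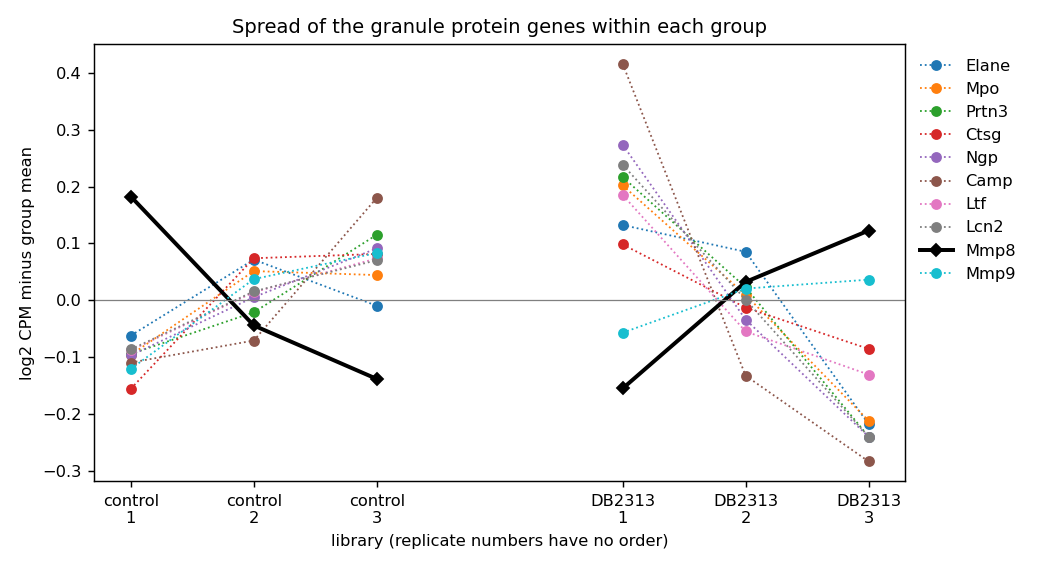
Log2 CPM of the granule protein genes minus the mean of their group (vertical axis) in each library (horizontal axis), with lines that only join the points of a gene and Mmp8 in black. In the DB2313 group 8 genes are highest in replicate 1 and lowest in replicate 3, and Mmp8 and Mmp9 run the other way.

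Ratios between granule genes within a library do not depend on its depth or scaling, and 4 were computed, chosen after the levels were seen. The ratio of Elane to Mpo counts was 0.147, 0.145 and 0.138 in control and 0.179, 0.198 and 0.187 with DB2313. That of Elane to its neighbour Prtn3 was 0.308, 0.322 and 0.277 in control and 0.376, 0.416 and 0.405 with DB2313. Elane was thus higher with DB2313 also relative to other azurophil genes, by 1.31-fold and 1.32-fold. The ratio of Camp to Ngp counts was 0.105, 0.09999 and 0.112 in control and 0.0954, 0.0807 and 0.0838 with DB2313, and that of Mmp8 to Ltf was 0.464, 0.369 and 0.332 against 0.509, 0.685 and 0.768. None of the 4 ratios overlapped between the groups, including in DB2313 replicate 3. No test of these ratios is given, since they were chosen for how the levels looked.

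**Figure D4:**
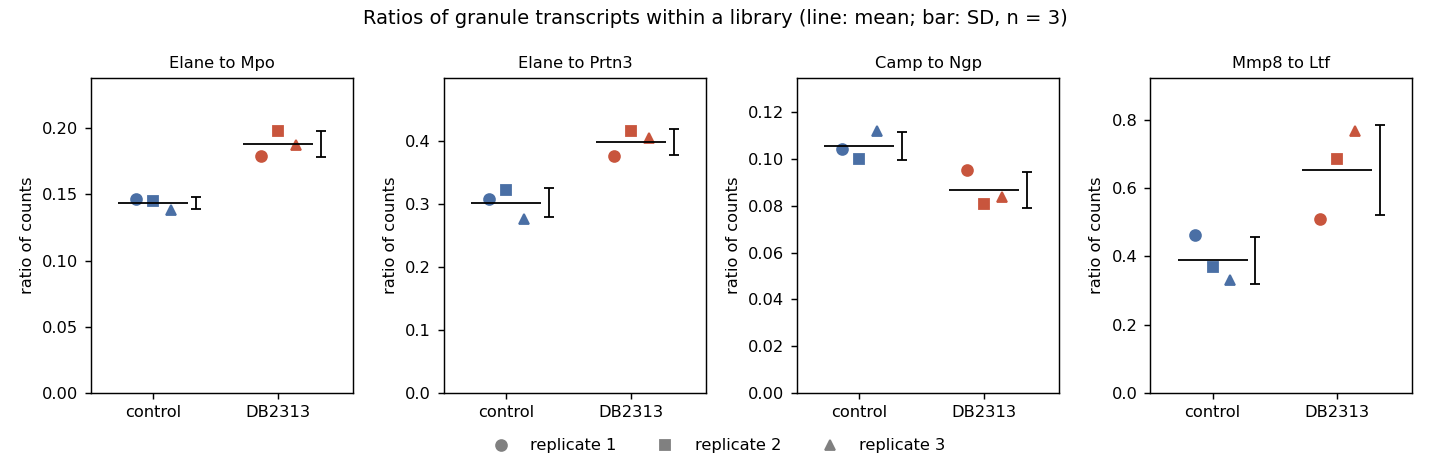
Ratio of the counts of granule gene pairs (vertical axes, from 0) in the control (blue) and DB2313 (red) libraries, with the replicate as the symbol, the mean as a line and the SD as a bar (n = 3). The DB2313 libraries lie above the control libraries for Elane to Mpo, Elane to Prtn3 and Mmp8 to Ltf, and below them for Camp to Ngp.

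Other genes of neutrophil granules and secretory vesicles moved in both directions. Of 18 tested, 2 were higher and 4 lower, with a median log2 fold change of -0.14. Fcnb, a lectin, rose from 14.7 ± 0.689 to 20.9 ± 1.70 CPM (log2 fold change 0.51 ± 0.12, SE, edgeR adjusted p 0.0102). It did not pass without control replicate 1 (0.0524). The other called gene that was higher was Anxa1 (0.24). Mmp25, a membrane-bound metalloproteinase of neutrophils, fell from 333 ± 23.9 to 186 ± 1.74 CPM (log2 fold change -0.84 ± 0.07, edgeR adjusted p 3.2e-06), and Adam8, a membrane protease, from 602 ± 13.3 to 430 ± 15.8 CPM (-0.49 ± 0.06, 1.9e-04). Hp, haptoglobin, fell from 237 ± 14.8 to 175 ± 15.5 CPM (-0.44 ± 0.08, 0.0022). Arg1, an arginase that in mice is better known from macrophages, fell from 59.1 ± 5.01 to 17.5 ± 3.33 CPM (-1.76 ± 0.12, 7.1e-07; SD for CPM, SE for log2 fold changes, n = 3 each). Prss57, a granule protease encoded within 100 kb of Prtn3 and Elane, was at 7.73 ± 0.476 and 9.97 ± 0.736 CPM and did not pass (0.37 ± 0.15, edgeR adjusted p 0.157).

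A wider list of processing enzymes and protease inhibitors, not all known to act on the granule proteases, was also mixed. Of 13 tested, 2 were higher and 2 lower, with a median log2 fold change of 0.050. Serpinb1a, an inhibitor of elastase, cathepsin G and proteinase 3, fell from 106 ± 5.77 to 79.8 ± 9.77 CPM (log2 fold change -0.41 ± 0.09, edgeR adjusted p 0.00832), and Slpi, a secreted inhibitor of elastase and cathepsin G, from 92.2 ± 13.0 to 72.7 ± 6.02 CPM (-0.34 ± 0.10, 0.0386). The serpins Serpina3g (0.55 ± 0.07, 1.3e-04) and Serpinb6b (0.26 ± 0.07, 0.0202) rose. Ctsc, which activates the granule serine proteases, averaged 673 ± 33.6 CPM in control against 596 ± 63.2 CPM in the treated libraries and did not pass (-0.18 ± 0.08, 0.195). The calls of Serpinb1a, Serpinb6b and Slpi were lost in several fits that left out 1 library, with an edgeR adjusted p of up to 0.0687, 0.164 and 0.232. That of Slpi was also lost with library totals (0.0542).

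Among 15 tested transcription factors and growth factor receptors of granulocytes, 2 were higher and 1 lower, with a median log2 fold change of -0.019. Cebpe, the factor that drives specific granule genes, rose from 42.4 ± 2.30 to 57.2 ± 1.88 CPM (log2 fold change 0.43 ± 0.08, edgeR adjusted p 0.00319), and Gfi1, a repressor needed for neutrophil maturation, from 9.64 ± 0.320 to 15.3 ± 1.93 CPM (0.66 ± 0.14, 0.00628). Csf3r, the receptor for G-CSF, fell from 51.0 ± 3.83 to 38.4 ± 2.21 CPM (-0.41 ± 0.09, 0.00863), and did not pass without control replicate 1 (0.0604) or DB2313 replicate 2 (0.0734). Cebpa, which acts earlier in this lineage, was at 207 ± 1.89 and 204 ± 20.6 CPM (-0.019 ± 0.08, edgeR adjusted p 0.923; SD for CPM, SE for log2 fold changes). Of the 6 subunits of the phagocyte oxidase, the enzyme that feeds Mpo with hydrogen peroxide through superoxide, Cybb fell from 987 ± 93.3 to 711 ± 84.3 CPM (-0.47 ± 0.09, 0.00282) and Rac2 rose from 724 ± 17.2 to 851 ± 64.6 CPM (0.23 ± 0.07, 0.0472). Rac2 kept its call without DB2313 replicate 3 and lost it without each of the other 5 libraries, with an edgeR adjusted p of up to 0.247.

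The markers of neutrophils outside the granules did not move as a block either. Of 15 tested, 3 were higher and 2 lower, with a median log2 fold change of 0.12. Ly6g (log2 fold change 0.56 ± 0.11, edgeR adjusted p 0.00473), Retnlg (0.51 ± 0.13, 0.0242) and Trem1 (0.90 ± 0.09, 2.3e-05) rose, Csf3r and Mxd1 (-0.28 ± 0.07, 0.0207) fell, and S100a8 (0.11 ± 0.09, 0.471), S100a9 (0.16 ± 0.09, 0.297) and Cxcr2 (0.03 ± 0.09, 0.892) did not pass. Retnlg did not pass without control replicate 1, control replicate 2 or DB2313 replicate 2, with an edgeR adjusted p of up to 0.171, or with a gene length offset (0.0569). Among 10 markers of granulocyte-monocyte progenitors, 3 were higher (Clec12a, Hdc and Fcnb) and 1 lower (Sox4), with a median of 0.25, and Ms4a3, a marker of these progenitors, did not pass (0.37 ± 0.13, edgeR adjusted p 0.0839). Of 14 macrophage and monocyte markers, 1 was higher and 8 were lower, with a median of -0.31, and of 15 dendritic cell markers 1 was higher and 3 were lower, with a median of -0.19. Trem1, Mxd1, Anxa1, Clec12a, Hdc, Sox4, Siglecf, Csf1r, Prss34, Cd93 and the dendritic cell markers were named after their values were seen. So were Mcpt8, Mcpt4, Tpsb2 and Cma1.

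**Figure D5:**
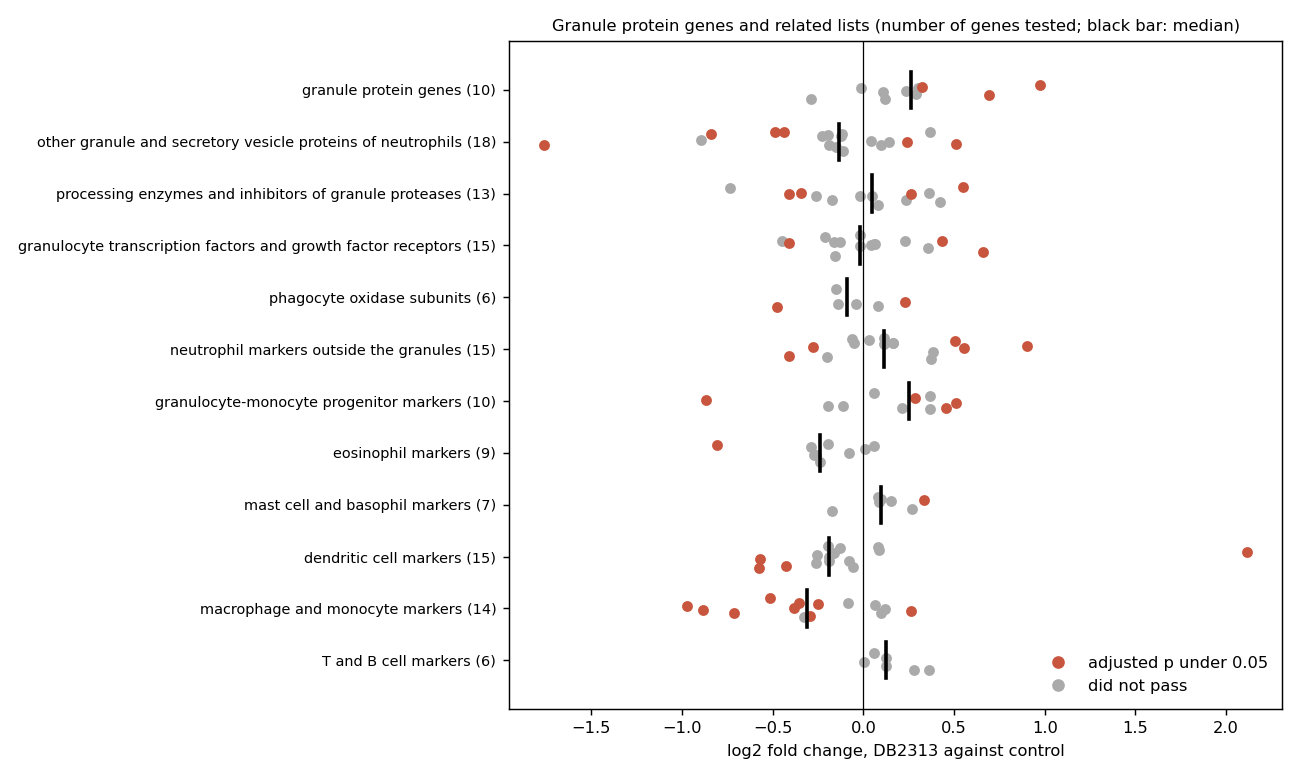
Log2 fold change with DB2313 against control (horizontal axis) of each tested gene in the granule protein list and 11 related lists (vertical axis, with the number of genes tested), with red points for an edgeR adjusted p under 0.05 and black bars for medians. The median of the granule protein genes is 0.26 and that of the other granule and vesicle proteins -0.14.

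The genes whose profile over the 6 libraries was most like the median profile of the 10 were Magohb, Fam58b, Ndufaf1, Mrpl48 and Tctn1, with a root mean square difference of 0.027 to 0.033 in centred log2 CPM among 11934 candidates. Within the list, Ltf was nearest to the median profile (0.026), and Mmp8 (0.44), Camp (0.31) and Elane (0.23) were the farthest. For Mmp8 alone the nearest were Mgl2, a macrophage and dendritic cell lectin, Casp2 and Slc40a1, the iron exporter of macrophages. Their differences were 0.068 to 0.086. These 3 were called higher, which is no separate result, since the profile they were matched to includes the difference between the groups. This likeness is a description over 6 libraries.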

How the data were processed

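RNA-seq read counts of 3 control and 3 DB2313 libraries were used. The authors deposited raw counts per gene, as whole numbers without normalisation or pooling, in 1 table that also gave gene lengths and coordinates. The labels name CASAVA 1.8, HISAT2 2.0.5 and featureCounts 1.5.0-p3, whereas the methods of the study name LifeScope, and strandedness was not given in the sources used here. Of 54409 genes shared with GENCODE M21, 98.33% had the same coordinates, including all 10 members, so positions are given as GRCm38. Library totals were 16146743 to 19764677 counts. No molecular identifiers are named, so intervals cover counting error only.

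Groups were taken from the treatment in the labels, and columns were matched to samples by name and number. Counts were fitted with edgeR 4.0.16 (R 4.3.3) by the quasi-likelihood test with TMM scaling, filterByExpr and the group as the only term, and called at a Benjamini-Hochberg adjusted p under 0.05 over 14174 genes. The scripts were tested on simulated data. CPM use TMM-scaled library sizes. The study named DESeq2, which was run as an alternative (1.42.0), with limma-voom (3.58.1), robust edgeR, a prior count of 2, DESeq2 size factors, unscaled totals, all genes unfiltered, genes averaging 10 counts or more, a gene length offset (lowess, span 0.3), the replicate number as a block and the omission of each library. Copies were searched with blastn 2.17.0 among GENCODE M21 transcripts. Promoters are from RefSeq (GRCm38.p6), and 9 of 10 genes matched. In the lists, Il36g was matched by its older symbol.

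The members and lists were chosen with earlier results of these data known. The rule for naming genes took the 10 members, up to 4 called genes with the lowest p in each list of granule, inhibitor, regulator and oxidase genes, those described for their role, the defining neutrophil and progenitor markers, and the 5 genes nearest in profile among those with a mean of at least 2 CPM (log2 of CPM plus 0.5).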

Additional observations from a re-analysis of the deposited data

How the results depend on the processing

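Mmp8 and Elane kept their direction and stayed past the threshold in all 16 alternatives, with log2 fold changes of 0.91 to 1.07 and 0.60 to 0.79. Ctsg passed in 14 of 16. Of the 10 genes, 3 were called higher and 0 lower. With library totals 5 were called higher, with no filter 6 higher and 1 lower, and with the gene length offset 5 higher and 1 lower. The calls over all genes moved too, from 661 higher and 842 lower in the main fit. They were 731 and 703 with library totals, 835 and 917 with no filter, and 843 and 982 with the length offset. The shares of the genes tested were not computed for these fits. When single libraries were left out, 2 to 7 were called higher (the most without DB2313 replicate 3) and 0 to 1 lower. Fits with fewer libraries have fewer degrees of freedom by construction, and the cause of the rise without DB2313 replicate 3 was not tested.

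The log2 fold change of Mpo passed with library totals (0.32), DESeq2 size factors (0.30), DESeq2 (0.30), no filter (0.31), robust edgeR (0.30) and the gene length offset (0.29). That of Prtn3 passed with no filter (0.30), that of Ltf with library totals (0.26), no filter (0.25) and the length offset (0.23), and that of Camp with no filter (-0.28) and the length offset (-0.40). With library totals, Ngp turned to 0.0077 and Cebpa to 0.0035, neither past the threshold. The causes were not tested. Leaving out single libraries, log2 fold changes ranged from 0.20 to 0.40 for Mpo, 0.18 to 0.40 for Prtn3, 0.25 to 0.37 for Ctsg, -0.16 to 0.10 for Ngp, -0.52 to -0.15 for Camp, 0.14 to 0.30 for Ltf, -0.017 to 0.22 for Lcn2 and -0.10 to 0.027 for Cebpa.

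Over all genes, 661 were higher and 842 lower, and 328 to 1097 were higher and 411 to 1311 lower when single libraries were left out. Replicate numbers showed no pairing. Deviations from the group means correlated at 0.0035, -0.024 and -0.12 between same-numbered libraries, and 0 of 6 libraries correlated best with its own number. With the replicate block, 502 genes were higher and 629 lower, and 3 of the 10 granule genes were higher. Of the other named genes that were followed through the alternatives, Serpinb6b, Slpi and Rac2 lost their calls with the block (edgeR adjusted p 0.0758, 0.0654 and 0.153). Anxa1, Siglecf, Hdc, Mxd1, Clec9a, Clec12a, Sox4, Mmp27, Mgl2, Casp2 and Slc40a1 were not followed, and their calls are those of the main fit only.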
